A study of Mus musculus with 6 samples.

Results

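Replacement histones are the histone variants that a cell makes and places into chromatin outside the bulk supply of S phase, and H1.0 is the linker histone of the same kind. The genes described here are 8 of the 58437 genes in the deposited tables: H1f0 (linker histone H1.0), H2az1 and H2az2 (H2A.Z), H2ax (H2A.X), Macroh2a1 (macroH2A1), H3f3a and H3f3b (H3.3) and Cenpa (CENP-A). They were chosen by name, though with earlier results of these data known. All 8 were found, those that the older annotation calls H2afz, H2afv, H2afx and H2afy included. The cells were GL261, a mouse glioma line, sampled 4 h after sodium propionate or after sodium chloride, the control salt, each at 1 uM per the labels. No other genotype or treatment is named. There were 3 total RNA libraries per salt, which the titles number 1, 2 and 3 (chloride) and 1, 4 and 5 (propionate). Propionate is a product of gut bacterial fermentation, and the question was which transcripts differ after its addition.

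Chromatin wraps DNA around an octamer of core histones, and a linker histone binds where the DNA enters and leaves. Most histone mRNA comes from replication-dependent genes, which lack introns, end in a stem-loop instead of a poly(A) tail and are made mainly in S phase. The variants have their own genes, most of them with introns and poly(A) tails, and their proteins mark particular places or states: H2A.Z at promoters, H3.3 at transcribed genes, CENP-A at centromeres, and H2A.X, which is phosphorylated, around DNA breaks. H1.0 builds up in cells that leave the cycle or differentiate, and its gene is known to respond to inhibitors of histone deacetylases.

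The libraries held 9.15 to 11.3 Gb of counted bases, and between 71192 and 82370 transcript models had coverage, with chloride 3 (71452) and propionate 1 (71192) below the other 4 libraries. Of 6 glial and glioma markers, 5 had at least 1 TPM in every library, with Nes at 314 to 370 and Vim at 2760 to 3400 scaled TPM, and Gfap was at 0.547 to 1.31. The defining macrophage marker Adgre1, the endothelial marker Kdr, the neuronal markers Rbfox3 and Snap25 and the T cell marker Cd3e were listed at 0 in the 6 libraries. The summed level of the macrophage list was 1.40 to 2.05, nearly all of it Csf1r, and that of the fibroblast and pericyte list was 76.4 to 100, nearly all of it Col1a1 (75.2 to 98.6), with Dcn at 0 to 0.0917 and Pdgfrb at 1.05 to 1.97. Nothing in the labels ties the libraries to separate cultures, so each p-value speaks for the spread between these 6 samples alone, and that spread may be technical. In bulk RNA, fewer cells that express a gene and less of its RNA per cell cannot be told apart.

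Levels are scaled TPM, the usual length-corrected transcript abundance after a factor per library that puts the typical gene at the same level. They are per length and can be compared between genes as far as the lengths of the transcript models hold. H3f3b was the highest of the 8 with a mean of 791 over the 6 libraries. H2ax (527) and H2az1 (458) followed, and their ranges over the libraries overlapped. H1f0 (143), H3f3a (118) and Cenpa (93.1) formed the next step, and each overlapped its neighbour. Macroh2a1 (74.8) lay below every Cenpa value, and H2az2 (52.1) lay below every Macroh2a1 value. By scaled coverage of the coding bases part of this order changed. H3f3a had means of 82 after chloride and 77.5 after propionate, above H1f0 (63.3 and 73.1). H2az1 (263 and 273) was not below H2ax (230 and 273). Within both pairs of genes that code for closely related proteins 1 partner supplied most of the RNA: H2az2 made up 9.65% to 12.0% of the H2A.Z pair and H3f3a 10.5% to 15.9% of the H3.3 pair by TPM. By coverage of the coding bases these shares were 9.91% to 11.6% and 11.4% to 20.2%.

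None of the 8 genes passed an adjusted p of 0.05 in limma, against 0.00645% of the 15506 genes tested (1 gene, which was higher after propionate). At an unadjusted p under 0.05 stood 1 of the 8, H1f0, against 5.15% of the genes tested. In 3 of the 8, H1f0, H2az2 and H2ax, the 3 propionate values lay above the 3 chloride values without overlap, against 5.28% of the genes tested with propionate higher and 11.8% in either direction. By coverage of the coding bases per Gb counted, scaled between libraries like TPM and free of model length, 2 of the 8 had no overlap, H1f0 and H2az2, against 9.56% of the 10144 protein-coding genes tested that way. The log2 difference, propionate minus chloride, was above 0 in 8 of 8 with a median of 0.15, beside a median of 0.0055 over all genes tested. Without the scaling, whose factors were 0.99 to 1.09 for chloride and 0.966 to 0.971 for propionate, the groups of H1f0, H2az2 and H2ax overlapped. Their differences were then 0.14 (limma unadjusted p = 0.15), 0.089 and 0.16. With TPM as deposited, without the scaling, the median of all genes was -0.083, and the differences of Macroh2a1 (-0.064) and Cenpa (-0.053) fell below 0. That of H3f3a was below 0 with reference transcripts alone (-0.65), with voom on estimated reads (-0.052) and by coverage of the coding bases (-0.051). For 7 of the 8 genes, H3f3a being the exception, the 95% interval of the difference lay within 1.5-fold in both directions. In simulated data made from these libraries, with 200 changed genes per draw, the test recovered 6.06% of genes changed 1.2-fold. It recovered 63.5% of those changed 1.5-fold and 90.5% of those changed 2-fold. The adjustment is stricter where fewer genes change, so these rates may be too high for data with 1 gene past the threshold. Differences of the size seen here were mostly below what the test could call.

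**Figure D1:**
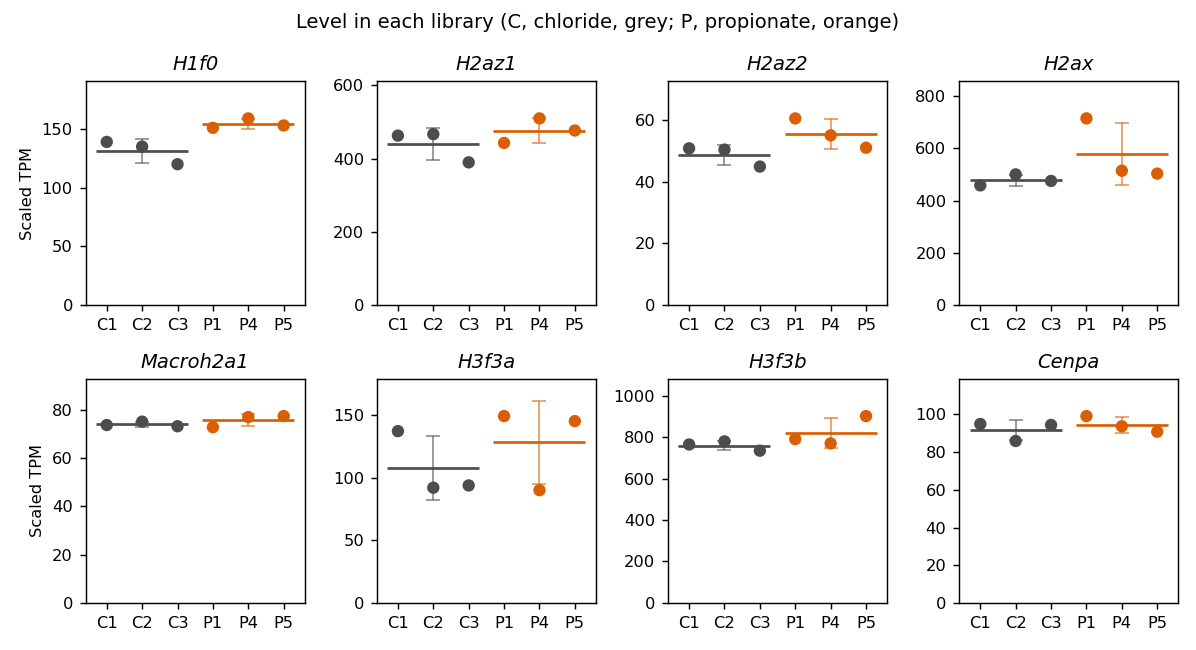
Scaled TPM (linear axes from 0) of the 8 genes in chloride 1, 2 and 3 (C1 to C3, grey) and propionate 1, 4 and 5 (P1, P4, P5, orange); lines are group means and error bars SD, n = 3. H1f0, H2az2 and H2ax have no overlap between the groups, H2ax with propionate 1 (714) far above the other 5 libraries, and the H3f3a values form a high and a low set in both groups.

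H1f0 codes for H1.0 from a single exon on chr15:79028450-79030504 (mm10, plus strand, ENSMUSG00000096210), with 582 coding bases and 1 transcript model, so its level did not depend on how reads were split between models. No stretch of 31 bases of its transcript occurred in another annotated gene. Its scaled TPM were 139, 135 and 120 after chloride and 151, 159 and 153 after propionate. The lowest propionate value was above the highest chloride value, and chloride 3 was the lowest of the 6. The means were 131 ± 9.73 and 154 ± 4.41 (SD, n = 3 each), a 1.18-fold difference with a 95% interval of 1.05 to 1.32. The log2 difference was 0.23 (SE 0.07), with an unadjusted p of 0.0112 and a limma adjusted p of 0.912, so it did not pass the test across all genes. By unadjusted p it stood 146th of 15506. Estimated RPM, reads relative to the library total with no use of length, kept the same arrangement, with 133 to 152 after chloride and 164 to 171 after propionate. Without chloride 3 the log2 difference was 0.17, and over the 6 fits that each left out 1 library it ranged from 0.17 to 0.27. With TPM as deposited the groups of H1f0 overlapped. The log2 difference was then 0.14, with a limma unadjusted p of 0.15, no longer under 0.05.

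The protein-coding genes whose profile over the 6 libraries was most like that of H1f0, among 7468 whose mean level reached 10 TPM, were Eci2, Cav1 and Fxyd5. Likeness was the root mean square difference of the log2 levels after each gene was centred on its mean, and it was 0.0297, 0.0333 and 0.0334. Eci2, an enzyme of the oxidation of unsaturated fatty acids in peroxisomes and mitochondria, had 36.6, 37.5 and 32.2 scaled TPM after chloride and 39.2, 42.6 and 40.6 after propionate. Cav1, the main protein of caveolae, had 426, 404 and 364 and then 467, 471 and 486, and Fxyd5, a regulator of the sodium pump, had 59.9, 57.3 and 52.8 and then 64.4, 64.9 and 65.3. Each of the 3 genes, like H1f0, had its lowest value in chloride 3. They were picked for this likeness, so their differences carry no test.

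The linker histones of the replication-dependent class show how the rest of the H1 family stood beside H1f0. None of the 5 passed the threshold or an unadjusted p under 0.05, and their median log2 difference was 0.10, or 0.0019 with TPM as deposited. H1f1 was at 1990 to 2210 scaled TPM, about an order of magnitude above H1f0. H1f2 had 442, 447 and 434 after chloride and 533, 475 and 448 after propionate, without overlap, with a log2 difference of 0.13 (SE 0.08, limma adjusted p = 0.912) that was 0.066 without propionate 1. H1f3 had means of 64.2 ± 4.02 and 68.7 ± 2.82 (SD, n = 3 each), which overlapped in range, with a log2 difference of 0.10. H1f4 was at 93.3 in chloride 2 and at 0 to 0.298 in the other 5 libraries, so its log2 difference of -1.96 rested on 1 library. Of 6 further variant histones only H2aj and H1f10 were tested, and neither passed. H2aj, a variant of H2A, was at 24.6, 26.2 and 21.9 and then 29.9, 25.4 and 25.3, and H1f10, the linker histone H1.10, had a mean of 0.943 ± 0.274 and 1.06 ± 0.512 (SD, n = 3 each).

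H2A.Z replaces H2A next to transcription start sites and is exchanged by the SRCAP and Ep400 complexes. H2az1 lies on chr3:137864487-137866922 (plus strand, ENSMUSG00000037894) and H2az2 on chr11:6427229-6444443 (minus strand, ENSMUSG00000041126). Their coding sequences, 384 bases each without the stop codon, differed at 80 bases, 69 of them at the 3rd position of a codon, and the longest identical run was 14 bases. The first 120 coding bases are shown because they show how far apart in sequence these genes for nearly the same protein are; capitals mark the 28 bases that differ.
H2az1: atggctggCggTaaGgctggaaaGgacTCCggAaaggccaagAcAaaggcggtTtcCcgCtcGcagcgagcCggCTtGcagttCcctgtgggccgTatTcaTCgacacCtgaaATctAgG
H2az2: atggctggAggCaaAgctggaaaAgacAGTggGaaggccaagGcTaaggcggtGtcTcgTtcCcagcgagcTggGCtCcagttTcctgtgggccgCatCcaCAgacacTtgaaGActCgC
The capitals stand at short intervals along the stretch.

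H2az1 was measured at 463, 467 and 390 scaled TPM after chloride and 443, 510 and 477 after propionate. The groups overlapped, and chloride 3 was the lowest library, as it was for H1f0. The means of 440 ± 43.3 and 477 ± 33.4 (SD, n = 3 each) gave a log2 difference of 0.12 (SE 0.09, limma adjusted p = 0.923). Without chloride 3 the difference of H2az1 was 0.030, and with TPM as deposited it was 0.020. H2az2 was measured at 50.8, 50.4 and 44.9 after chloride and 60.5, 55.0 and 51.0 after propionate. The groups did not overlap, but the highest chloride and lowest propionate values were nearly equal, and propionate 1 was the highest. The means of 48.7 ± 3.26 and 55.5 ± 4.75 (SD, n = 3 each) gave a log2 difference of 0.18 (SE 0.08, limma unadjusted p = 0.0619, adjusted p = 0.912). Without chloride 3 and propionate 1 the difference of H2az2 was 0.062, and with TPM as deposited it was 0.089 and the groups overlapped.

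Both H2A.Z genes had several transcript models. The main coding model of H2az1, with 1069 bases, held 349, 454 and 337 scaled TPM after chloride and 275, 396 and 379 after propionate. A shorter coding model of 914 bases held 94.1, 0 and 45.5 and then 145, 97.8 and 73.9. In chloride 2 the first was at its highest and the second was listed at 0, and in propionate 1 the first was at its lowest and the second at its highest. Another coding model of 852 bases was at 0 to 6.84 after chloride and 10.1 to 15.5 after propionate, with a limma adjusted p of 0.862. In H2az2 the 610-base model (24.0 to 37.3) and the 1633-base model (21 to 25.4) held similar levels. Of the 16 genes of H2A.Z exchange none passed the threshold or an unadjusted p under 0.05, and their median log2 difference was 0.017. The 2 with the smallest p were Yeats4, a subunit shared by these complexes, with 56.2 ± 3.3 and 61.7 ± 4.07, and Vps72, which binds the H2A.Z dimer, with 13 ± 0.744 and 11.2 ± 1.73 (SD, n = 3 each, limma adjusted p = 0.912 for both).

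H2A.X is the variant whose phosphorylated form marks DNA double-strand breaks. H2ax lies on chr9:44334694-44336077 (mm10, plus strand, ENSMUSG00000049932) in 1 exon, with 429 coding bases and 1 transcript model of 1384 bases. It is known to make mRNA both with a stem-loop end and with a poly(A) tail. Its stem-loop is shown because it is the sequence that places this gene between the replication-dependent and the replacement genes; capitals mark the 16 bases of the stem and loop, which lie in the 3′ untranslated part of the exon, at chr9:44335237-44335261 with their flanks.
H2ax stem-loop: aaaGGCCCTTTTAAGGGCCaccacc
It begins 46 bases after the stop codon, and 822 bases of the annotated transcript follow it. Of the 40 annotated transcripts of the 8 genes, this was the only one with a match to the stem-loop pattern. The pattern matched in 46 of 67 protein-coding genes whose older names begin with Hist, and in 0.0783% of all annotated transcripts. That naming also covers H1f6, counted here among the further variant histones.

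H2ax was measured at 458, 500 and 475 scaled TPM after chloride and 714, 514 and 503 after propionate. The groups did not overlap, but propionate 4 and 5 lay just above chloride 2, and propionate 1 stood alone. The means of 478 ± 21 and 577 ± 119 (SD, n = 3 each) gave a log2 difference of 0.25 (SE 0.14, limma adjusted p = 0.912). Without propionate 1 the difference was 0.091, and with TPM as deposited it was 0.16 and the groups overlapped. By scaled coverage of the coding bases the groups overlapped, with 218 to 241 after chloride and 239 to 338 after propionate.

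Propionate 1 was also high for the replication-dependent H2A genes that share stretches of sequence with H2ax. The median over 15 such genes of the log2 level, centred on each gene's mean over the libraries, was -0.16, 0.0045 and -0.12 in the chloride libraries and 0.20, 0.070 and 0.022 in the propionate libraries. Stretches of 31 bases shared with other genes made up 8.90% of the H2ax transcript, so some reads could belong to either. The same centred median over 14 S phase genes was -0.0095 in propionate 1, within the range of the other libraries, and over 13 G2 and M phase genes it was 0.047, the highest of the 6 by a small margin over propionate 4 (0.041). The part of the shared sequence in the H2ax value of propionate 1 was not tested.

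**Figure D2:**
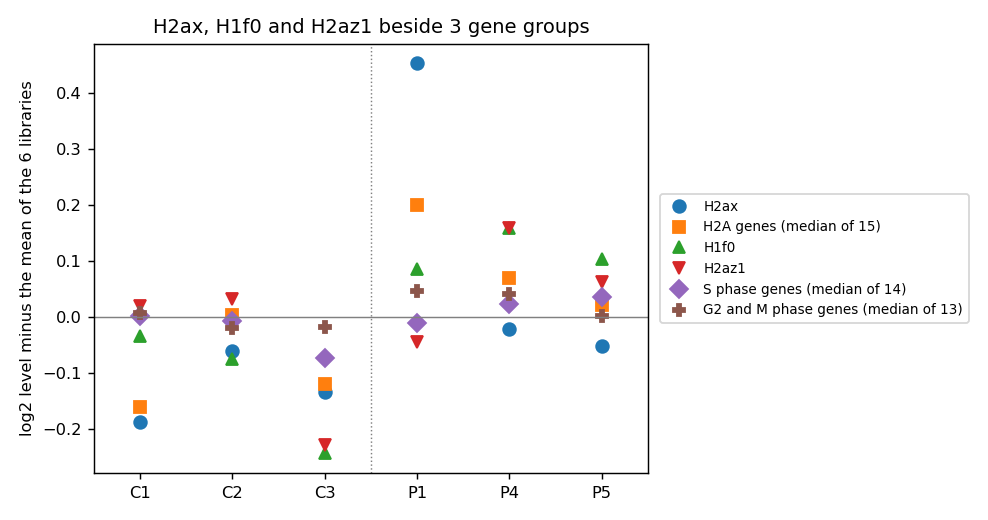
Log2 level of H2ax, H1f0 and H2az1, and the median over 15 H2A genes, 14 S phase genes and 13 G2 and M phase genes, each centred on its mean over the 6 libraries (x axis, chloride left and propionate right of the dotted line). H2ax and the H2A genes are highest in propionate 1, H1f0 and H2az1 are lowest in chloride 3, and the cell cycle groups stay within 0.1 of 0.

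Of the 9 genes of H2A.X signalling none passed the threshold or an unadjusted p under 0.05, and their median log2 difference was -0.029. Atr, a kinase that phosphorylates H2A.X at stalled forks, was at 12.8, 14 and 13.4 after chloride and 10.1, 12.2 and 12.3 after propionate, and Trp53bp1, which binds chromatin around breaks, was at 10.7, 10.9 and 12.1 and then 9.83, 10.1 and 10.2. Both had propionate values below the chloride values without overlap, beside 11.8% of the genes tested without overlap in either direction. They were named for the smallest p of the list, which favours such a gap. Their log2 differences were -0.20 and -0.15, with a limma adjusted p of 0.912. In the S phase list none of 14 genes had an unadjusted p under 0.05. Its median difference was 0.040 with 13 of 14 above 0, but the median was -0.057 with TPM as deposited, so the signs depended on the scaling. Its 2 genes with the smallest p, Mcm2 and Mcm5 of the replicative helicase, had differences of 0.078 and 0.070 that fell below 0 with TPM as deposited. In the G2 and M phase list Ube2c, which serves the anaphase-promoting complex, had 135 ± 5.40 and 152 ± 12.9, and Ccnb1, cyclin B1, had 159 ± 4.01 and 173 ± 7.13 (SD, n = 3 each), neither past the threshold.

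MacroH2A1 carries a large macro domain behind its histone fold and is found on silenced chromatin, the inactive X chromosome included. Macroh2a1 lies on chr13:56073619-56136361 (mm10, minus strand, ENSMUSG00000015937). It was the steadiest of the 8, at 73.6, 75.0 and 73.1 scaled TPM after chloride and 72.7, 76.9 and 77.3 after propionate. The 6 values had a coefficient of variation of 2.61%, against a median of 7.38% over tested genes whose mean reached 10 TPM. The difference on the log2 scale was 0.032 (SE 0.05, limma adjusted p = 0.945), with a 95% interval from -0.092 to 0.16. By reference transcripts alone, without the models assembled from these libraries, the difference was 0.66 (limma adjusted p = 0.941).

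Splicing chooses between 2 exons in the macro domain, which give macroH2A1.2 (here 372 codons) or macroH2A1.1 (369 codons), of which the second is known to bind ADP-ribose. Both exons are shown, as read on the minus strand, because the share of each form can be read from their coverage. No part is singled out, so they have no capitals.
Macroh2a1 exon of the 372-codon form, chr13:56089758-56089857: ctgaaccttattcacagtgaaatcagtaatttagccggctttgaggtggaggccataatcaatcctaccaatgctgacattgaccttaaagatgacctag
Macroh2a1 exon of the 369-codon form, chr13:56088252-56088342: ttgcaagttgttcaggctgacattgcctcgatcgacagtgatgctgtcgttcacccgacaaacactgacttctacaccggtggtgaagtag
The first is 100 bases long and the second 91.

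By read coverage the exon of the longer protein was the main one in every library. Its mean coverage, with no correction for library depth, was 438, 401 and 378 after chloride and 366, 562 and 506 after propionate. Propionate 4 and 5 held 11.3 and 11.1 Gb of counted bases and the other libraries 9.15 to 9.47 Gb, so these values cannot be compared directly between libraries. The exon of the shorter protein had 76.8, 97.0 and 86.2 and then 67.6, 73.5 and 76.8. Its share of the coverage of both exons was 14.9%, 19.5% and 18.5% after chloride and 15.6%, 11.6% and 13.2% after propionate. The groups overlapped in 1 pair of libraries, since propionate 1 was above chloride 1, and the means were 17.6% ± 2.40 and 13.4% ± 2.03 (SD, n = 3 each). From the TPM of the models that carry each exon the same share was 16.2%, 27.4% and 17.1% and then 26.4%, 14.1% and 26.4%, so the order of the libraries depended on which value was read. These shares are a description with no test.

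**Figure D3:**
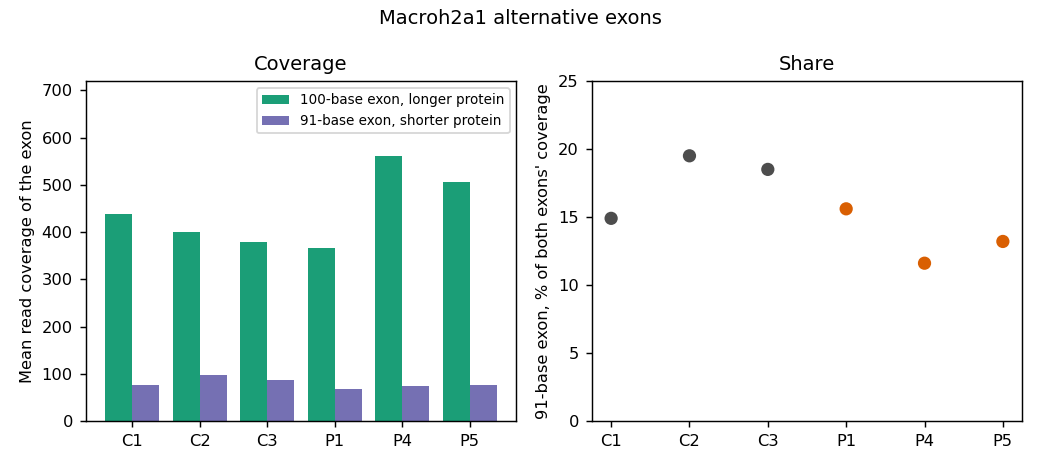
Mean read coverage of the 2 alternative exons of Macroh2a1 in each library (left) and the share of the 91-base exon in the coverage of both, in percent (right, grey chloride, orange propionate). Coverage on the left is not corrected for library depth. The 100-base exon is the main one in the 6 libraries, and the share of the other lies between 11.6% and 19.5%.

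Single models of Macroh2a1 moved far more than the gene. The reference model of the longer protein was at 10.5, 23.8 and 19.5 scaled TPM after chloride and 28.1, 31.2 and 48.8 after propionate (log2 difference 1.00, SE 0.36, limma unadjusted p = 0.0343, adjusted p = 0.862). An assembled model of 2172 bases with the same exon was at 40.5, 18.6 and 38.3 and then 24.3, 33.3 and 6.19. The first was at its highest in propionate 5, where the second was at its lowest. Over all 8 genes, 53 models were listed, 40 from the reference and 13 assembled, and 39 of them were tested. None passed the threshold, against 0.0364% of 35755 transcripts tested, and 4 had an unadjusted p under 0.05, against 4.58%. Of the 39, 13 were listed at 0 in at least 1 library, and a listed 0 may be an estimate that failed.

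H3.3 is the form of H3 that HIRA, DAXX and ATRX place outside replication, and both its genes code for the same protein. H3f3a lies on chr1:180800832-180813943 (minus strand, ENSMUSG00000060743) and H3f3b on chr11:116021912-116027962 (minus strand, ENSMUSG00000016559). Their 408 coding bases differed at 95, of which 81 were at the 3rd position of a codon, so they were 76.7% identical with a longest identical run of 23 bases. The first 120 coding bases are shown because reads of 101 bases can tell these genes apart even where the protein cannot; capitals mark the 24 bases that differ.
H3f3a: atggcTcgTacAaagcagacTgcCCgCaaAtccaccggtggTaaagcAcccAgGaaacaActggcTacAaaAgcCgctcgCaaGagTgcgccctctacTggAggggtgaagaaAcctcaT
H3f3b: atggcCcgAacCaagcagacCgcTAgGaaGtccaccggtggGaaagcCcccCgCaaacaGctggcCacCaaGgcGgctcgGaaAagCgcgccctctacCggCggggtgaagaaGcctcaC
Both are open to copies elsewhere: 20.2% of the 31-base stretches of H3f3a occurred in another gene, 55 annotated pseudogenes in all, and 17.2% of those of H3f3b.

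H3f3b was measured at 765, 780 and 735 scaled TPM after chloride and 791, 770 and 902 after propionate. The groups overlapped, and propionate 5 was the highest. The means of 760 ± 22.9 and 821 ± 70.5 (SD, n = 3 each) gave a log2 difference of 0.11 (SE 0.08, limma adjusted p = 0.919). Without propionate 5 the difference of H3f3b was 0.041, and with TPM as deposited it was 0.011. Its main coding model of 2207 bases held 97.9%, 95.9%, 99.3% and 98.3% of the gene's bases in propionate 1, chloride 2, chloride 3 and propionate 5. In chloride 1 and propionate 4 it held 65.0% and 64.9%, and longer assembled models held nearly all of the rest. The mean model length was 2491 and 2638 bases in these libraries and 2174 to 2191 in the others, so the order by TPM depends on it. Estimated RPM of H3f3b were 1020, 905 and 866 after chloride and 913, 1060 and 1030 after propionate, with propionate 4 the highest. By voom the difference was 0.11.

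H3f3a was measured at 137, 91.9 and 93.7 scaled TPM after chloride and 149, 89.9 and 145 after propionate. The values fell into a high set (chloride 1, propionate 1 and propionate 5) and a low set (chloride 2, chloride 3 and propionate 4) that did not follow the salt. The means of 108 ± 25.5 and 128 ± 33.0 (SD, n = 3 each) gave a log2 difference of 0.24 (SE 0.23, limma adjusted p = 0.931), with the widest interval of the 8, from -0.31 to 0.78. Estimated RPM were 134, 133 and 144 after chloride and 127, 141 and 129 after propionate, and the split was gone. By that measure, with voom, the difference was -0.052. The scaled coverage of the coding bases was 64.2, 70.2 and 111 and then 70.6, 93.2 and 68.6, with chloride 3 and propionate 4 the highest and a difference of -0.051. H3f3a thus had its lowest propionate TPM in the library with its highest propionate coding coverage, and no direction held across the measures.

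The models that received H3f3a reads differed between libraries. A model of 836 bases that keeps an intron was at 96.9, 64.0 and 1.47 scaled TPM after chloride and 112, 9.68 and 104 after propionate. The full coding model of 2841 bases was at 90.6 in chloride 3 and listed at 0 in the other 5. An assembled model of 3257 bases was at 78.9 in propionate 4 alone, and longer assembled models of 7475 and 7382 bases held 57.4% to 78.2% of the gene's bases in the other 4 libraries. The mean length of the models, weighted by TPM, was 1830, 2733 and 2868 bases after chloride and 1619, 3001 and 1697 after propionate, so each of the 3 libraries with a high TPM had a shorter mean length than each of the 3 with a low one. The summed level of the 55 pseudogenes was 165, 178 and 88.6 and then 198, 193 and 185, lowest in chloride 3, where the coding coverage of H3f3a was highest. The part of these assignments in the differences between libraries was not tested.

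**Figure D4:**
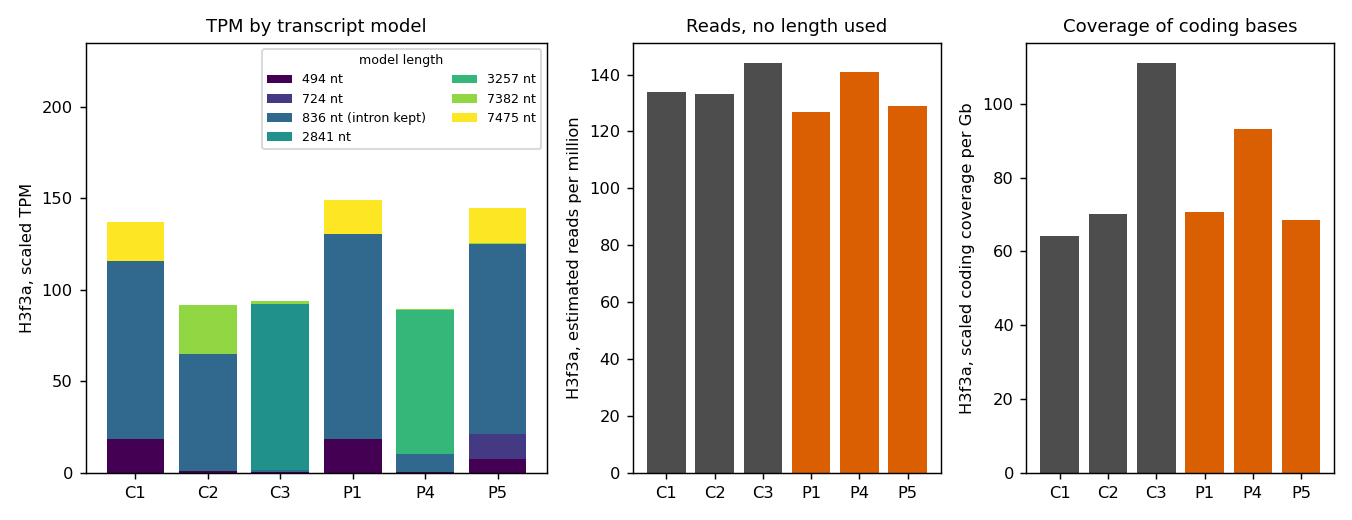
H3f3a in each library as scaled TPM stacked by transcript model (left, coloured by model length), as estimated RPM (middle) and as scaled coverage of the coding bases per Gb counted (right; grey chloride, orange propionate). TPM splits the libraries into 3 high and 3 low, RPM lie between 127 and 144, and coding coverage is highest in chloride 3.

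Of the 9 genes for H3.3 chaperones none passed the threshold or an unadjusted p under 0.05, 7 had a difference below 0, and the median was -0.035. Ubn2, a subunit of the HIRA complex, had 16.2 ± 2.74 and 13.9 ± 0.490, and Atrx, the remodeller that works with DAXX, had 78.1 ± 1.54 and 75.3 ± 8.60 (SD, n = 3 each). Their ranges overlapped between the groups. Of 11 general histone chaperones none passed either, with a median of 0.028. Chaf1b, of the complex that places histones behind the replication fork, had 17.9, 21.2 and 15.3 after chloride and 22.3, 22.4 and 19.3 after propionate, and Nap1l4, a chaperone of H2A and H2B, had 88.8 ± 5.30 and 93.2 ± 2.86 (SD, n = 3 each).

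CENP-A is the H3 variant that marks the centromere, and the chaperone HJURP places it there. Cenpa lies on chr5:30666777-30674830 (mm10, plus strand, ENSMUSG00000029177). Its level was 94.9, 85.9 and 94.4 scaled TPM after chloride and 99.1, 93.7 and 90.8 after propionate. The groups overlapped, and the difference on the log2 scale was 0.043 (SE 0.06, limma adjusted p = 0.941), with a 95% interval from -0.11 to 0.20. Without chloride 2, its lowest library, the difference was -0.0024.

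Most of the Cenpa level lay in models other than the reference coding model. Of its 14 models 11 were tested. The reference coding model was at 19.4, 13.5 and 13.9 scaled TPM after chloride and 9.28, 12.6 and 13.4 after propionate (log2 difference -0.38, SE 0.21, limma adjusted p = 0.862). A retained-intron model of 1541 bases was at 11.9, 17.7 and 12.3 and then 18.8, 22.3 and 22.0 (log2 difference 0.57, SE 0.18, limma unadjusted p = 0.0231, adjusted p = 0.862). A second one, of 4995 bases, was at 2 to 2.54 and then 1.08 to 1.35. A model annotated for nonsense-mediated decay, of 1483 bases, was at 14.4 to 25 over the 6 libraries. Coverage of the Cenpa coding bases over all models was 52.7, 49.9 and 49.2 and then 52.8, 49.3 and 51.0 after the same scaling, a log2 difference of 0.012. This value sums every model that overlaps the coding bases, so opposed differences of single models can cancel in it. It cannot show whether those differences hold. Of the 8 genes of CENP-A deposition none passed the threshold or an unadjusted p under 0.05, and the median was 0.0075. Rbbp7, a histone-binding subunit of several complexes, had 399 ± 22.0 and 421 ± 24.7 (SD, n = 3 each).

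**Figure D5:**
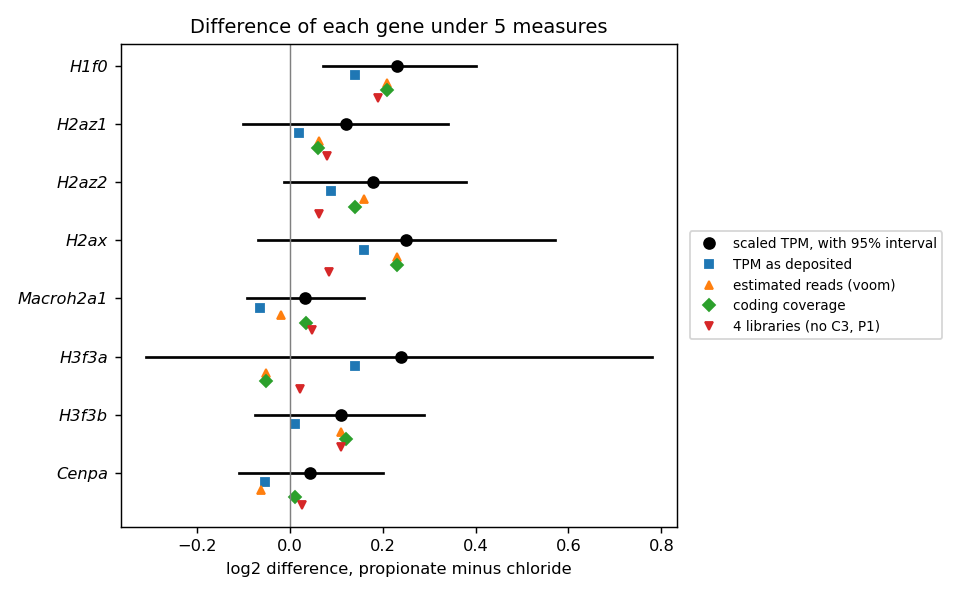
Log2 difference, propionate minus chloride, of the 8 genes: scaled TPM with its 95% interval (black), TPM as deposited, estimated reads, coverage of coding bases, and the 4 libraries without chloride 3 and propionate 1. H1f0, H2az1, H2az2, H2ax and H3f3b are above 0 under the 5 measures, and H3f3a, Macroh2a1 and Cenpa change sign between measures.

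The promoters of 7 of the 8 genes, each 300 bases from RefSeq (GRCm38.p6), were searched on both strands for 3 motifs. The CCAAT box matched in 5 of them, 3 times in H2az1, 4 times in H2az2 and in H3f3b, 2 times in Cenpa and 1 time in H3f3a, and not in H1f0 or Macroh2a1. Over all 32851 promoters of that length 37.4% held a CCAAT. The GC box GGGCGG matched in all but H3f3b, against 35.7% of promoters, and TATAAA matched in H3f3b alone, against 13.6%. The H1f0 window ends before the start of the transcript that the files use. The H3f3b window (chr11:116024455-116024754, minus strand) lies mostly inside the main model, which starts at 116024718. The windows of Macroh2a1 and Cenpa also reach well into their transcripts. A match is a description and not a site.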

How the data were processed

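Per the labels' protocols, total RNA was extracted with an RNeasy kit and made into libraries with a stranded TruSeq total RNA kit. bcl2fastq, fastp, HISAT2, StringTie and the build mm10 appear in the submitters' processing notes. Per the file headers, StringTie 2.1.1 wrote the deposited values, which are coverage, FPKM and TPM per transcript model with no counts; strand and other settings were not given in the sources used here.

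TPM were summed per gene over reference transcripts and the assembled models that share their exons, which made 58437 genes from 157296 models. Genes with no transcript of at least 200 bases were left out. Libraries were scaled by median ratios, with factors from 0.966 to 1.09. The 15506 genes whose mean reached 1 TPM entered a two-sided limma test (version 3.58.1, R 4.3.3, variance trend) on log2(TPM + 1). P-values were adjusted by Benjamini-Hochberg over these genes, and the threshold was 0.05. Fold changes on this scale understate the change of low genes. Reads were estimated from coverage, model length and the read length of 101 bases that the steps of coverage show. Sequences, gene names and exons came from GENCODE M21 (GRCm38, as mm10). Replicates were not pooled. The test was checked on simulated data with 200 changed genes in each of 5 draws. Python 3.11.15, pandas 2.3.3, numpy 2.4.6 and matplotlib 3.10.9 were used.

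The members and gene lists were chosen with earlier results of these data known. The text names the 8 members, the transcripts of theirs, with a mean level of 1 TPM or more, that a result turns on, the 2 genes of each list with the smallest p, 3 genes most like H1f0, and H1f1 and H1f4, which were named after their values were seen. A gene that this rule would name is not reported here. Alternatives were other scalings, pseudocounts, filters, gene sums, tests and libraries left out; the coding coverage was added after the models of H3f3a were seen.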

Additional observations from a re-analysis of the deposited data

How the results depend on the processing

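No member passed an adjusted p of 0.05 under any alternative run. The number of genes past the threshold and higher was 1, and it was 0 with no filter, with voom (881 genes at an unadjusted p under 0.05) and with coding coverage (379 of 10144 at an unadjusted p under 0.05). It was 2 with a mean of at least 5 TPM, with whole loci and with library weights, 5 without chloride 3 and propionate 1, and 1 to 4 over the fits that left out 1 library, the 4 being without propionate 1. The number lower was 0, and it was 1 without chloride 3 and propionate 1. Macroh2a1 changed sign with TPM as deposited (-0.064), quantile normalization (-0.019) and voom (-0.020). H3f3a did so with reference transcripts alone (-0.65), voom (-0.052) and coding coverage (-0.051), and Cenpa with TPM as deposited (-0.053) and voom (-0.063), while leaving out 1 library gave -0.0024 to 0.073. H1f0 stayed between 0.14 and 0.27 over the alternatives, but at 0.14, with TPM as deposited, its limma unadjusted p was 0.15. Among other genes, H2aj (-0.0076), Atrx (0.0064) and Mcm2 (-0.0052) changed sign without chloride 3 and propionate 1, H1f10 without chloride 2 and Atrx without propionate 1 (leave-one-out ranges -0.043 to 0.24 and -0.14 to 0.023), and Rbbp7 (-0.023), Nap1l4 (-0.025), Mcm2 (-0.019) and Mcm5 (-0.027) with TPM as deposited. With TPM as deposited the medians of the other lists were 0.031 (further variant histones), -0.13 (H3.3 chaperones), -0.077 (H2A.Z exchange), -0.089 (CENP-A deposition), -0.12 (H2A.X signalling), -0.069 (general chaperones) and -0.048 (G2 and M phase), beside -0.083 over all genes. The cause was not tested. No paired analysis was possible because the groups share only the number 1. Leaving out each library of the lists, and the coding coverage, were chosen after seeing the data.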
